A study of Mus musculus with 16 samples.

Results

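Insulin and insulin-like growth factor (IGF) signalling in the mouse somatosensory cortex was followed through 10 of the 24060 genes measured. They were the ligand Igf2, the binding protein Igfbp2, the receptors Insr and Igf1r, the adaptors Irs1 and Irs2, the phosphatidylinositol 3-kinase (PI3K) subunit Pik3r1 and the transcription factors Foxo1, Foxo3 and Foxo6. The members were matched by gene symbol and all 10 were found in every library. The set was selected on the measured stress values of Irs2, which had been seen to be higher after stress in both RNA fractions. Stress values of the members are therefore given as a description. Their intervals rest on the spread between libraries and make no allowance for the choice by Irs2. Nothing is read from how many members passed a threshold. The comparison of one RNA fraction with the other did not enter that choice and was tested. For Irs2, though, both fraction ratios use the same library values as the choice, so its ratios are a description too.

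Insulin and the IGFs bind receptor tyrosine kinases, Insr and Igf1r, which phosphorylate the adaptors Irs1 and Irs2. These recruit PI3K, whose lipid product activates the kinase AKT, and AKT in turn keeps FoxO transcription factors out of the nucleus. When signalling is low, FoxO proteins enter the nucleus and switch on their target genes, among which Irs2 and Insr are counted in liver, while astrocytes are known to carry both receptors.

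All mice were C57BL/6J of the genotype Aldh1l1CreERT2-RiboTag, aged 3 months, and all of them, controls included, had received tamoxifen at 2 months. RiboTag puts an HA tag on the ribosomal protein Rpl22 in cells with Cre, here under the astrocyte gene Aldh1l1, so that IP libraries hold RNA bound to tagged ribosomes and INPUT libraries hold RNA of the whole cleared lysate. Stressed mice swam for 20 min and recovered for 90 min in the home cage, which naïve mice did not leave. IP and INPUT of naïve and of stressed mice made 4 groups with 4 libraries in each, 16 in all, which go by their library numbers here. Each animal was homogenized on its own, IP and INPUT were taken from the same lysates, and the labels do not say which IP belongs with which INPUT, so libraries were treated as independent. The labels give 4 weeks between tamoxifen and the experiment and the study's methods a shorter time, and the sex of each mouse was not given with its libraries.

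Libraries held between 16392876 and 25814364 reads on genes, and values are in CPM, the counts per 1000000 of these. The summed level of 7 astrocyte markers was 82970 to 87740 CPM in naïve IP and 5030 to 5421 CPM in naïve INPUT, and all 7 were higher in IP in both conditions. The sum of 6 neuronal markers in IP was 4.79% of that in INPUT in naïve mice and 3.91% in stressed mice. The number of genes that differed between stress and naïve in IP (limma, adjusted p under 0.05) was 55 and depended on single libraries. It was 122 without naïve IP library 11, 76 higher and 46 lower, and without stress IP library 15 it was 42 higher and 59 lower. In INPUT it was 6, and 32 without naïve library 14. Library 11 also had the highest Igf2, Insr, Igf1r, Irs2, Pik3r1, Foxo1 and Foxo3 of naïve IP, and the lowest Igfbp2 and Irs1. Without it the log2 stress difference in IP went from −0.09 to −0.24 for Igfbp2 and from −0.11 to −0.07 for Insr. It went from −0.18 to −0.10 for Igf1r, from −0.12 to −0.08 for Pik3r1 and from 0.12 to 0.20 for Foxo3. Values of Igf2, Irs2, Irs1 and Foxo1 without library 11 are given with these genes.

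The 250 bases before the RefSeq transcription start of Irs2 and of Irs1 (GRCm38.p6, both on the minus strand) are shown because these related adaptors are the members that stood apart between stress and naïve in IP. The Irs2 sequence is chr8:11008930-11009179, and the RefSeq start of Irs2 lies 471 bases upstream of its start in the GENCODE M21 annotation. The Irs1 sequence is chr1:82291440-82291689, and the RefSeq start lies 23 bases upstream of the GENCODE start. Capitals mark CACGTG, the E-box, and TGTTTTG, the core of the insulin response element known from the Igfbp1 promoter.
Irs2: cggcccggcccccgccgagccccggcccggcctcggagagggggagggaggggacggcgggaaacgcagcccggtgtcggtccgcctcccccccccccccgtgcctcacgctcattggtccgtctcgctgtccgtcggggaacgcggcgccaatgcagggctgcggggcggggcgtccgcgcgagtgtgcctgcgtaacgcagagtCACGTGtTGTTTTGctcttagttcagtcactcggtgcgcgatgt
Irs1: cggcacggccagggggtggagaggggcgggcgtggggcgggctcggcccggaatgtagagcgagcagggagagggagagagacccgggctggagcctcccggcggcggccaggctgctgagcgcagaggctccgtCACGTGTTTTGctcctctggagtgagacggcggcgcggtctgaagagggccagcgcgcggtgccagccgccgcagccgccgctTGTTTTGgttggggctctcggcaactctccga

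Both sequences hold CACGTG with TGTTTTG next to it, in Irs2 at bases 44 to 39 and 37 to 31 before the start, and in Irs1 at bases 115 to 110 and 111 to 105, where the 2 motifs overlap. Irs1 held a second TGTTTTG at bases 32 to 26. The search covered both strands of 32851 RefSeq windows of 250 bases, in which 8 of the 10 members had an entry. CACGTG stood in 6.02% of all windows, TGTTTTG in 5.56% and both in 0.295%, and among the members CACGTG was also found in Igfbp2. Neither TGTTTAC, a form of FoxO site (3.17% of windows), nor the cAMP response element TGACGTCA (1.55%) was found in a member window. Under the name of FoxO site only TGTTTAC was searched, so its absence does not cover other sequences that FoxO proteins may bind. TGTTCT, which is part of the site bound by the glucocorticoid receptor (16.1%), was found in the windows of Igf2 and Igfbp2. CACGTG and TGTTTTG were picked after the 2 sequences had been read, and a match of letters describes the sequence and shows no binding. GC content was 72.8% in the Irs2 sequence and 72.4% in that of Irs1, beside a median of 52.4% over all windows.

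In naïve mice, IP and INPUT differed for 8 of the 10 members by limma, 5 of them higher in IP and 3 lower. Leaving out Irs2, 5 of 9 were higher and 2 lower. Over all 13339 genes tested, 87.7% passed the same threshold, 23.7% higher in IP and 64.0% lower. The log2 IP/INPUT ratio, taken on log2(CPM + 0.1), had a median of 0.07 over the members and −0.64 over all genes tested. In stressed mice 4 members were higher in IP, 4 lower and 2 did not pass, beside 23.6% of 13333 genes higher, 62.5% lower and 86.1% in either direction. The files scale each library to its own total, whereas median-ratio scaling sets the median of all genes near 0 by construction (0.00 in place of −0.64). Each member's ratio is therefore also read against the median of all genes. Reading a ratio against that median and using median-ratio scaling are nearly the same check.

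**Figure D1:**
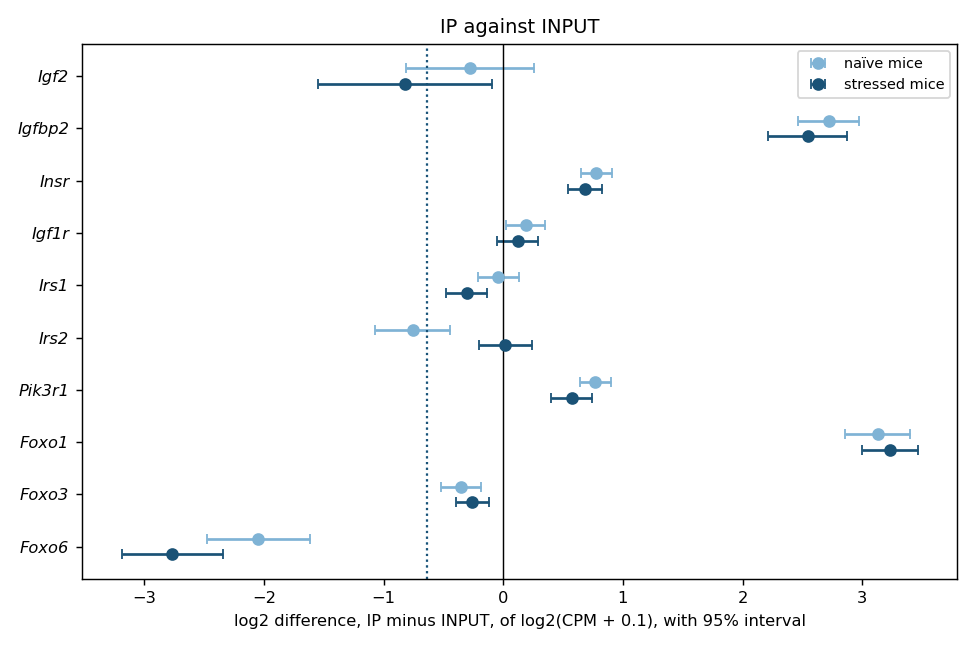
The log2 IP/INPUT ratio of the 10 genes (x axis, on log2(CPM + 0.1)) in naïve (light) and stressed (dark) mice, with 95% intervals from limma on 4 IP and 4 INPUT libraries; the dotted lines mark the median of all genes tested, −0.64 and −0.63. Foxo1 (3.13 in naïve mice) and Igfbp2 (2.72) lie far to the right and Foxo6 (−2.05) to the left, while Irs2 lies at −0.76 in naïve mice and at 0.02 in stressed mice.

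Igf2 (chr7:142650766-142666816, minus strand) encodes a growth factor that binds Igf1r and Insr and is known in adult brain chiefly from the meninges and choroid plexus. It stood at 30.2, 20.3, 57.3 and 23.4 CPM in naïve IP libraries 2, 8, 11 and 13 and at 32.4, 12.4, 38.7 and 13.1 CPM in stress IP libraries 4, 5, 6 and 15. In naïve INPUT it ranged from 30.5 to 43.7 CPM and in stress INPUT from 29.7 to 47.8 CPM. All 4 groups overlapped, and the IP libraries spread more widely than the INPUT libraries.

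The log2 IP/INPUT ratio of Igf2 was −0.28 ± 0.25 (SE, n = 4 and 4, limma adjusted p = 0.304) in naïve mice, was called at −0.59 (adjusted p = 0.001475) without naïve IP library 11, and turned to 0.36 under median-ratio scaling and 0.30 under quantile normalization. In stressed mice it was −0.82 ± 0.33 (adjusted p = 0.03515), which no longer passed under either scaling (−0.20 and −0.22), without a variance trend, or when any of 4 of the 8 libraries was left out (−1.11 to −0.56 over all 8). The stress difference in IP was −0.50 ± 0.39 on the log2 scale, and −0.19 without library 11.

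In IP, meningeal fibroblast markers and Igf2 shared their highest and lowest library, but not the order of all libraries. The summed level of 8 such markers, led in IP by Col1a2, Slc22a6 and Ogn, was 103, 76.9, 166 and 70.6 CPM in naïve IP libraries 2, 8, 11 and 13. In stress IP it was 108, 68.4, 100 and 87.1 CPM in libraries 4, 5, 6 and 15. Library 11 was the highest IP library in both Igf2 and the marker sum, and library 5 the lowest in both. Within stress IP, library 6 had the highest Igf2 and library 4 the highest sum. Library 11 also led naïve IP in mural (200.9 CPM), endothelial (17.31 CPM) and oligodendrocyte precursor (25.85 CPM) sums, but not in those of the other cell types. In naïve INPUT the sum of the 8 meningeal markers ranged from 60.1 to 87.5 CPM and in stress INPUT from 83.8 to 108 CPM. None of the 8 markers was at 0 throughout a group, 1 was higher and 3 were lower in naïve IP than in naïve INPUT, 0 passed between stress and naïve in either fraction (limma), and the part of meningeal RNA in the Igf2 values was not tested. The choroid plexus sum (7 markers) was 131 CPM in 1 naïve IP library, number 2, and at most 12.7 CPM in stress IP, while Igf2 in library 2 was within the range of the other naïve IP libraries. Reads of Igf2 cannot be told apart from those of Gm49394 and the antisense Igf2os, which overlap its exons in GENCODE M21, since the strand setting of the counting was not given in the sources used here.

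**Figure D2:**
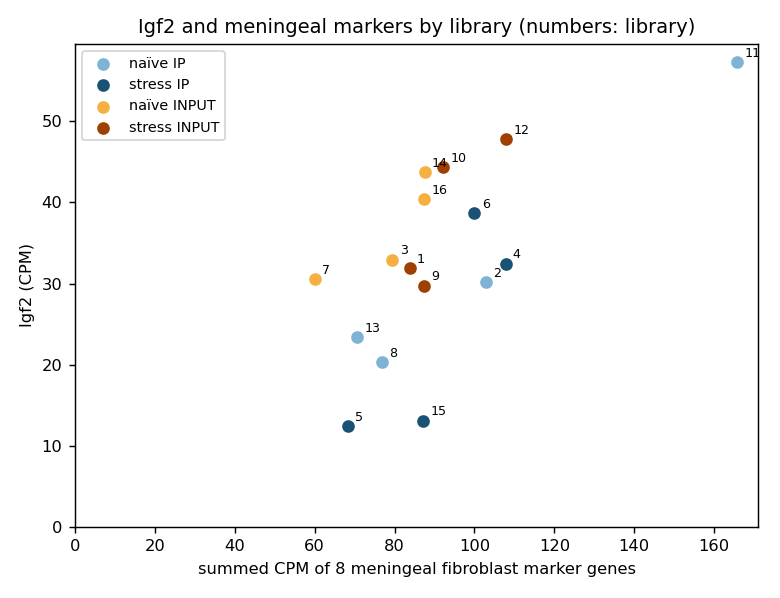
Igf2 in CPM (y axis) against the summed CPM of 8 meningeal fibroblast markers (x axis) in the 16 libraries, numbered by library and coloured by group. Naïve IP library 11 lies at the upper right (57.3 CPM of Igf2, 166 CPM of markers) and stress IP library 5 at the lower left (12.4 and 68.4 CPM).

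Igfbp2 (chr1:72824503-72852474, plus strand), a secreted protein that binds IGFs outside the cell, was the most abundant member per exon length in IP. Its level was 263 ± 52.6 CPM (SD, n = 4) in naïve IP and 39.3 ± 2.53 CPM in naïve INPUT, a 6.58-fold higher level in IP on the fitted scale (log2 ratio 2.72 ± 0.12, adjusted p = 6.189e-11). Every IP library, from 191 to 325 CPM over both conditions, lay above every INPUT library, from 34.6 to 49.1 CPM. Only 2.9% of the genes tested had a higher ratio in naïve mice. In stressed mice the log2 ratio was 2.54 ± 0.15 (adjusted p = 4.569e-09). Stress and naïve overlapped in both fractions, with a log2 stress difference of −0.09 ± 0.17 in IP and 0.08 ± 0.10 in INPUT.

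Of 10 other genes listed as binding proteins, 5 were expressed, and these were strongly split by fraction. The 10 included Igfals and the RNA-binding Igf2bp1, Igf2bp2 and Igf2bp3, none of which was among the 5. Igfbp5 was higher in IP (log2 ratio 2.10 ± 0.09, adjusted p = 5.133e-11), and Igfbp3, Igfbp4, Igfbp6 and Igfbp7 were lower in IP, with log2 ratios between −3.77 and −4.39. Igfbp6, for one, stood at 59.4 ± 1.74 CPM in naïve INPUT and at 2.90 ± 1.13 CPM in naïve IP. Igf1, the other ligand expressed, was likewise lower in IP (log2 ratio −2.83 ± 0.14, adjusted p = 2.049e-10), at 1.85 ± 0.26 CPM against 13.7 ± 1.42 CPM. These names, other than Igfbp4, Igfbp6 and Igfbp7, were chosen after their values were seen.

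The insulin receptor gene Insr (chr8:3122061-3279617, minus strand) was higher in IP than in INPUT in every library. It measured 128, 129, 148 and 136 CPM in naïve IP and 83.5, 77.1, 75.6 and 79.0 CPM in naïve INPUT. The log2 ratio was 0.78 ± 0.06 (adjusted p = 3.222e-08) in naïve mice and 0.68 ± 0.06 (adjusted p = 4.715e-07) in stressed mice, and 15.3% of genes had a higher ratio in naïve mice. Stress IP libraries, from 118 to 135 CPM, overlapped naïve IP, and the log2 stress difference was −0.11 ± 0.06 in IP and −0.02 ± 0.06 in INPUT.

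Igf1r (chr7:67952827-68233668, plus strand), the main receptor of IGF1 and IGF2, was much closer to even between fractions on the deposited scale. It measured 149 CPM in naïve IP (136 to 174) and 130 CPM in naïve INPUT (125 to 136), and the 2 groups overlapped. The log2 ratio of 0.19 ± 0.08 passed the threshold in naïve mice (adjusted p = 0.03123) and that of 0.12 ± 0.08 in stressed mice did not (adjusted p = 0.1714). The naïve call was lost when any of 5 of the 8 libraries was left out. Under median-ratio scaling the ratio passed in both, at 0.83 in naïve and 0.75 in stressed mice, and under quantile normalization at 0.66 and 0.60. On the deposited scale Igf1r stood 0.82 above the median of all genes in naïve mice. Per kilobase of exon, Insr was 1.11 ± 0.09 times Igf1r in naïve IP and 0.739 ± 0.055 times in naïve INPUT, and the 4 ratios of IP (1.04 to 1.22) lay above the 4 of INPUT (0.692 to 0.818). In stressed mice the order was the same, at 1.17 ± 0.11 and 0.787 ± 0.047. Igf2r, a receptor that clears IGF2 and carries no kinase, did not pass between fractions (log2 ratio 0.00 ± 0.07, adjusted p = 0.9673), a gene added after its value was seen.

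Irs2 (chr8:10984681-11008458, minus strand) was the member whose values moved most with stress, which is why the set was chosen. In IP it measured 28.1, 26.9, 46.1 and 30.4 CPM in naïve libraries 2, 8, 11 and 13 and 97.5, 82.0, 68.4 and 72.5 CPM in stress libraries 4, 5, 6 and 15. All 4 stress IP libraries lay above all 4 naïve IP libraries, and library 11 was the naïve library nearest to them. Without it the naïve mean was 28.4 ± 1.78 CPM (n = 3) in place of 32.9 ± 8.97 CPM. The stress difference on the log2 scale was 1.30 ± 0.16, a fitted 2.47-fold higher level (95% interval 1.94 to 3.15), and 1.48 without library 11, the highest of the values from 1.21 to 1.48 with 1 library left out.

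In INPUT, Irs2 measured 47.0, 57.8, 60.0 and 53.0 CPM in naïve libraries 3, 7, 14 and 16 and 72.2, 79.3, 84.7 and 78.2 CPM in stress libraries 1, 9, 10 and 12. Here too the groups did not overlap, and the log2 difference was 0.53 ± 0.08 (1.45-fold, 95% interval 1.29 to 1.63), and 0.46 to 0.58 with 1 library left out. In such lysates of whole tissue, a change in the number of cells of a type and a change in RNA per cell cannot be told apart. The log2 difference in IP exceeded that in INPUT by 0.77 ± 0.20 (95% interval 0.36 to 1.18; 0.95 without library 11), a value that was not past the threshold over all genes tested.

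Between fractions, Irs2 was lower in IP in naïve mice on the deposited scale, and the ratio in stressed mice did not pass. Both ratios use the values by which Irs2 was chosen, and their p-values make no allowance for that. In naïve mice the log2 IP/INPUT ratio was −0.76 ± 0.14 (adjusted p = 2.418e-04), with every IP library below every INPUT library. Relative to the median of all genes, however, it was only −0.12, and 53.7% of genes had a higher ratio; the ratio no longer passed under median-ratio scaling (−0.12, adjusted p = 0.5103) or quantile normalization (−0.19, adjusted p = 0.2431). In stressed mice the ratio was 0.02 ± 0.10 (95% interval −0.20 to 0.24, adjusted p = 0.8831), 0.65 above the median of all genes, where 29.2% of genes had a higher ratio, and it passed at 0.64 under median-ratio scaling and 0.54 under quantile normalization; with array weights, which give libraries unequal weight, it was −0.01. The antisense gene 9530052E02Rik overlaps exons of Irs2, and reads of both cannot be told apart here.

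Irs1 (chr1:82233101-82291416, minus strand), the companion adaptor, had IP values on the other side. It measured 49.7, 52.9, 43.1 and 51.3 CPM in naïve IP and 37.8, 36.2, 38.7 and 40.2 CPM in stress IP, with all 4 stress libraries below all 4 naïve libraries. The log2 stress difference was −0.36 ± 0.08 in IP (95% interval −0.53 to −0.20; −0.42 without library 11) and −0.10 ± 0.08 in INPUT, where the groups overlapped. Between fractions the log2 ratio in naïve mice was −0.04 ± 0.08 (adjusted p = 0.6396), and it was positive under median-ratio scaling (0.60), quantile normalization (0.52) and without library 11 (0.02). In stressed mice the ratio was −0.31 ± 0.08 (adjusted p = 0.002505) and turned to 0.32 and 0.27 under the 2 scalings, so its direction between fractions rests on the scaling. Gm9747 lies antisense over exons of Irs1, and the same limit on strand holds.

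Per kilobase of exon, which compares levels of different genes only roughly, Irs2 and Irs1 were close in naïve IP and far apart in stress IP. The ratio of Irs2 to Irs1 was 0.816, 0.734, 1.55 and 0.857 in naïve IP libraries 2, 8, 11 and 13. It was 3.73, 3.28, 2.56 and 2.61 in stress IP libraries 4, 5, 6 and 15, all above the naïve libraries. In INPUT the ratio was 1.40 to 1.87 in naïve and 2.25 to 2.49 in stressed mice, and these groups also did not overlap. Since Irs2 chose the set, these ratios are a description.

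**Figure D3:**
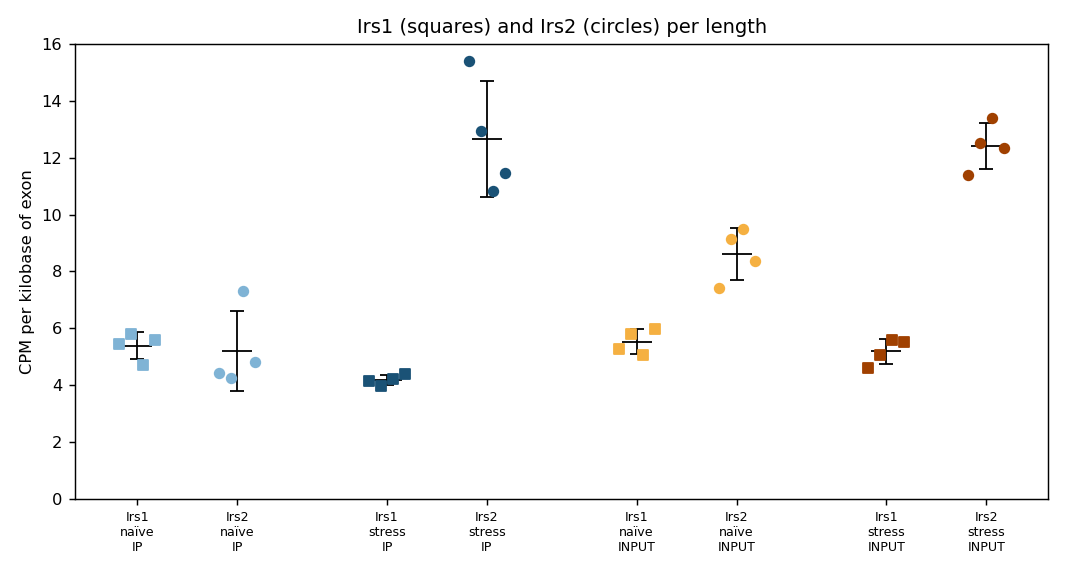
Irs1 (squares) and Irs2 (circles) in CPM per kilobase of exon in each library, with the mean and SD of 4 libraries per group. In naïve IP the means were 5.39 for Irs1 and 5.20 for Irs2, and in stress IP 4.18 and 12.7.

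Of 9 other adaptors listed, 7 were tested in IP and 6 in INPUT between stress and naïve, and 0 passed in either by limma. At an unadjusted p under 0.05 there were 0 and 1, beside 1034 of 12501 and 683 of 13577 genes. The log2 differences of the 7 in IP ran from −0.36 to −0.11. In naïve mice 2 of the 7 were higher in IP and 4 lower, beside 23.7% and 64.0% of all genes. Gab1, a docking protein that also recruits PI3K, was the higher of these (log2 ratio 1.66 ± 0.09, adjusted p = 7.644e-10), and Grb2, which links receptors to RAS, was the lowest (−1.22 ± 0.06, adjusted p = 2.995e-10). Both were chosen after their values were seen.

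Pik3r1 (chr13:101680563-101768217, minus strand), the regulatory subunit through which class I PI3K binds phosphorylated adaptors, was higher in IP. It measured 651 ± 46.8 CPM in naïve IP and 381 ± 18.2 CPM in naïve INPUT, and no IP library overlapped an INPUT library. The log2 ratio was 0.77 ± 0.06 (adjusted p = 3.278e-08) in naïve and 0.57 ± 0.08 (adjusted p = 1.862e-05) in stressed mice. Stress IP measured 703, 565, 570 and 560 CPM in libraries 4, 5, 6 and 15, 1 library standing above the other 3, and overlapped naïve IP, with a log2 difference of −0.12 ± 0.08 in IP and 0.08 ± 0.05 in INPUT.

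Of 11 further PI3K subunits and lipid phosphatases, 9 were lower in IP and 2 higher in naïve mice, beside 64.0% and 23.7% of all genes, and their median log2 ratio was −0.43 beside −0.64 for all genes. The catalytic subunit Pik3cd was lowest (log2 ratio −3.13 ± 0.10, adjusted p = 3.095e-12) and Inppl1, a lipid phosphatase, was higher at 2.06 ± 0.06 (adjusted p = 1.333e-12). Both were picked after their values were seen.

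Foxo1 (chr3:52268336-52353221, plus strand), a transcription factor that AKT holds in the cytoplasm, had the highest IP/INPUT ratio of the members. It measured 76.8, 89.8, 115 and 89.5 CPM in naïve IP libraries 2, 8, 11 and 13 and 8.98, 9.30, 11.9 and 11.7 CPM in naïve INPUT libraries 3, 7, 14 and 16. The log2 ratio was 3.13 ± 0.12 (8.75-fold, adjusted p = 2.185e-11) in naïve mice and 3.23 ± 0.11 (9.39-fold, adjusted p = 1.673e-11) in stressed mice. Only 1.5% of genes had a higher ratio in naïve mice, and the summed astrocyte markers in IP were 1642% of those in INPUT. Stress IP, at 86.6 to 127 CPM, overlapped naïve IP, with a log2 difference of 0.24 ± 0.13, 0.34 without library 11, and in INPUT the difference was 0.14 ± 0.12. Gm20402 lies antisense over exons of Foxo1.

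Foxo3 (chr10:42181841-42276755, minus strand) was close to even between fractions, with 93.9 ± 10.5 CPM in naïve IP beside 119 ± 7.79 CPM in naïve INPUT. Its log2 ratio was −0.35 ± 0.08 (adjusted p = 7.785e-04) in naïve and −0.26 ± 0.06 (adjusted p = 0.002007) in stressed mice, but 0.29 and 0.37 under median-ratio scaling and 0.16 and 0.24 under quantile normalization, so that its direction also rests on the scaling. The log2 stress difference was 0.12 ± 0.08 in IP and 0.03 ± 0.06 in INPUT.

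Foxo6 (chr4:120267079-120287349, minus strand), a FoxO factor known mainly from neurons, was low in IP. It rested on 31 to 58 reads per library in naïve IP and on 118 to 184 in naïve INPUT, that is 1.89 ± 0.43 and 8.13 ± 1.68 CPM. The log2 ratio was −2.05 ± 0.20 (adjusted p = 3.357e-07) in naïve and −2.77 ± 0.19 (adjusted p = 2.6e-08) in stressed mice, and stayed below the median of all genes in both, by 1.41 and 2.13. The 6 neuronal markers were also all lower in IP, with sums of 424 to 551 CPM in naïve IP and 9753 to 10190 CPM in naïve INPUT, and their part in the Foxo6 value was not tested. The log2 stress difference was −0.45 ± 0.25 in IP and 0.27 ± 0.15 in INPUT, and the groups overlapped in both.

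The makeup of FoxO transcripts thus differed between fractions. Per kilobase of exon, Foxo1 was 0.859 ± 0.066 times Foxo3 in naïve IP and 0.0764 ± 0.0071 times in naïve INPUT. After stress the ratios were 0.932 ± 0.095 and 0.0823 ± 0.0079, each overlapping its naïve range. All IP ratios (0.768 to 1.01) lay above all INPUT ratios (0.0702 to 0.0941).

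Ordered by level per kilobase of exon, the members ran in naïve IP from Igfbp2 (143 ± 28.5 CPM per kilobase) and Pik3r1 (64.6 ± 4.65) through Foxo3 (12.4 ± 1.39), Foxo1 (10.7 ± 1.84), Insr (9.85 ± 0.68) and Igf1r (8.89 ± 1.07) to Igf2 (5.73 ± 2.95), Irs1 (5.39 ± 0.47), Irs2 (5.20 ± 1.42) and Foxo6 (0.724 ± 0.164). Neighbours from Foxo3 to Igf1r, and Igf2, Irs1 and Irs2 among themselves, differed from each other by less than the larger of their SDs. In stress IP Irs2 stood at 12.7 ± 2.05, beside Foxo3 (13.5 ± 0.83) and Foxo1 (12.6 ± 1.93). In naïve INPUT the order was led by Pik3r1 (37.8 ± 1.81) and Igfbp2 (21.3 ± 1.37), and Foxo1 was last (1.21 ± 0.18).

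**Figure D4:**
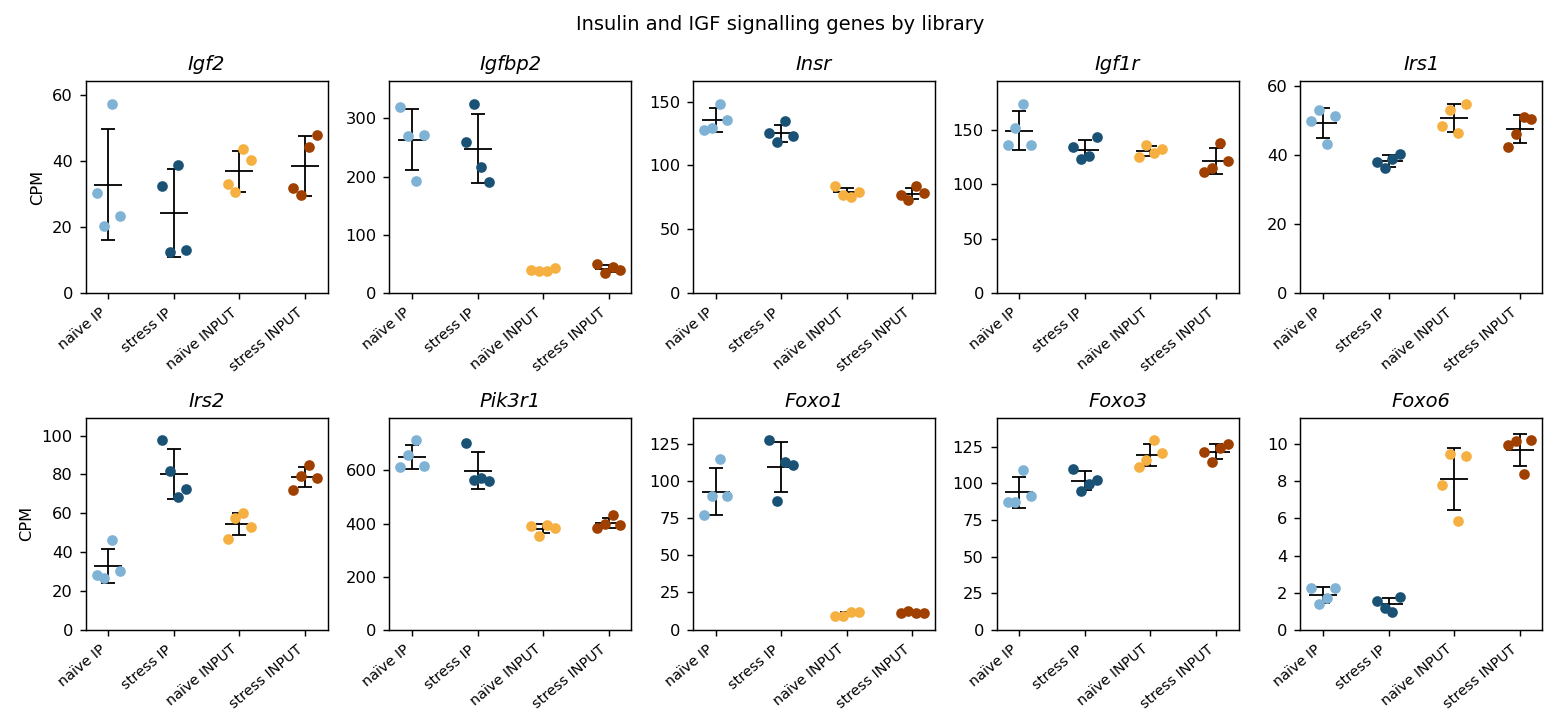
Levels of the 10 members in CPM (y axis, from 0) in each of the 16 libraries, with the mean and SD of 4 libraries per group. Igfbp2 and Foxo1 are high in both IP groups, Foxo6 is high in both INPUT groups, and Irs2 is the panel in which stress libraries lie above naïve libraries in IP (68.4 to 97.5 against 26.9 to 46.1 CPM) and in INPUT (72.2 to 84.7 against 47.0 to 60.0 CPM).

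In both stress comparisons the other 9 members had smaller log2 differences than Irs2. Since Irs2 set the choice, the counts for each fraction only describe the set and nothing is read from them. In IP, 2 of 10 members, Irs2 and Irs1, had groups without overlap, beside 5.0% of 12501 genes, and 1 of 10, Irs2, was among the 0.44% of genes past limma's threshold. In INPUT, Irs2 alone had groups without overlap, beside 2.87% of 13577 genes, and was among the 0.0442% past the threshold. The difference of the stress effects between IP and INPUT passed for 0 of the 10, Irs2 included, and for 0.0225% of 13341 genes by limma (629 genes at an unadjusted p under 0.05; 3 genes and no member by limma-voom). Leaving Irs2 out, the members' log2 stress differences ran from −0.50 to 0.24 in IP and from −0.11 to 0.27 in INPUT, with medians of −0.12 and 0.05 beside 0.00 for all genes. The comparisons in IP and INPUT used different libraries of the same mice.

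**Figure D5:**
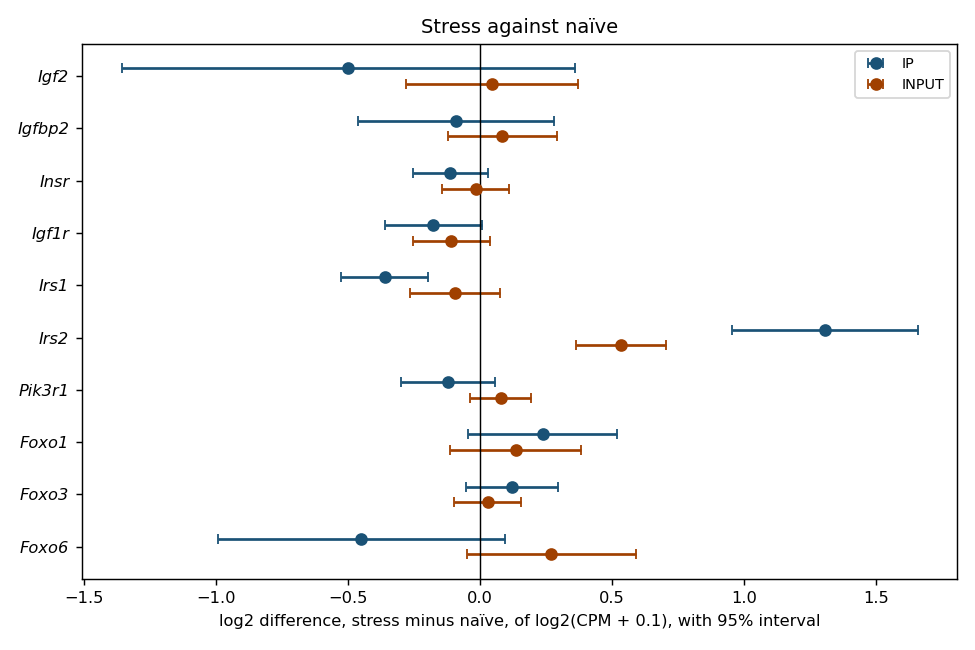
The log2 stress difference of the 10 members (x axis, stress minus naïve on log2(CPM + 0.1)) in IP (blue) and INPUT (brown) with 95% intervals from limma, 4 against 4 libraries each. Irs2 stands at 1.30 in IP and 0.53 in INPUT, Irs1 at −0.36 in IP, and the intervals of the other members include 0.

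Beyond the members, 108 further genes of the pathway were listed by role. In IP, 90 of them were expressed and 1 changed with stress, Trp53inp1, a p53- and FoxO-regulated gene of stress and autophagy responses. The naïve IP mean was 32.3 ± 9.62 CPM and that of stress IP was 63.0 ± 9.69 CPM, a log2 difference of 0.99 ± 0.18 (adjusted p = 0.04195), with no overlap of the groups. A further 11 had an unadjusted p under 0.05 by limma, beside 1034 of all 12501 genes tested. The call was lost under 5 of the 12 other settings and when any of 6 of the 8 libraries was left out. Of the 122 genes that passed without library 11, 7 were pathway genes. These were Trp53inp1 (1.16), Txnip (1.92), an inhibitor of thioredoxin that also curbs glucose uptake, Klf15 (0.65), Sesn1 (0.54), Bcl6 (0.45) and the pseudokinases Trib1 (0.57) and Trib2 (−0.83), all named after their values were seen except Trp53inp1.

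Trp53inp1 was listed among the FoxO target genes. Of 17 FoxO targets expressed, it was the 1 called in IP, beside 0.44% of all genes, with a median log2 difference of 0.06 beside 0.00 over all genes. In the AKT kinases and their regulators (9 genes) and the mTORC1 branch (13 genes), 0 were called, with medians of −0.01 each. In INPUT, 0 of 91 pathway genes passed by limma or by limma-voom, beside 0.0442% of all genes by limma, and the median log2 difference was 0.02. An unadjusted p under 0.05 (limma) was found for 15 of the 91, beside 683 of all 13577 genes tested. Between the stress effects in IP and INPUT, 0 of 93 passed by either tool and 5 had an unadjusted p under 0.05 (limma), beside 629 of 13341 genes. Without library 11, Trib2 and Txnip passed, among 28 genes in all.

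Between fractions in naïve mice, 27 of 93 pathway genes were higher in IP and 54 lower, beside 23.7% and 64.0% of all genes, with a median log2 ratio of −0.42 beside −0.64 for all genes. The highest were Pdk4 (log2 ratio 3.49 ± 0.11), a kinase that switches off pyruvate dehydrogenase, Slc2a4 (2.51 ± 0.39), the insulin-responsive glucose transporter GLUT4, and Phlpp1 (2.44 ± 0.06), a phosphatase of AKT. GLUT4 transcripts were rare, with 3.39 ± 1.33 CPM in naïve IP beside 0.557 ± 0.364 CPM in naïve INPUT. The 3 lowest were Igfbp6, Igfbp7 and Igfbp4. Of the AKT kinases, Akt2 was higher in IP (1.97 ± 0.08, adjusted p = 2.832e-11) and Akt1 lower (−0.95 ± 0.06, adjusted p = 1.525e-09), both named after their values were seen. In stressed mice 27 of 93 were higher in IP and 55 lower, beside 23.6% and 62.5% of all genes.

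The 8 genes whose values over the 16 libraries lay closest to those of Irs2 were taken by the mean absolute difference of log2(CPM + 0.1), each gene centred on the naïve mean of its fraction, over 12305 genes. They were Nfkbia (distance 0.16), Bambi (0.18), Plekhf1 (0.18), Tsc22d3 (0.19), Spsb1 (0.20), Rhou (0.20), Errfi1 (0.20) and Cebpb (0.20), where the median gene was at 0.57. Their log2 stress differences ran from 0.82 to 1.39 in IP and from 0.30 to 0.74 in INPUT. Differences near those of Irs2 follow from the way these genes were chosen and are a description. Before stress, Errfi1 had a lower mean in IP, at 17.3 ± 4.86 CPM beside 43.1 ± 4.10 CPM in naïve INPUT. So had Bambi (1.615 and 2.873 CPM), Spsb1 (13.83 and 16.05 CPM) and Cebpb (1.285 and 5.523 CPM). Tsc22d3 was higher in IP, at 285 ± 111 and 84.1 ± 20.1 CPM, as were the means of Nfkbia, Plekhf1 and Rhou.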

How the data were processed

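RNA sequencing of 16 libraries was analysed, 4 per group. The authors aligned reads with STAR to mm10, counted fragments on genes with HTSeq and deposited, for each library, log2 CPM of 24060 genes, scaled to the library's own total with a small constant and no correction for gene length. From the shared floor of −6.40, which stands for 0 reads, CPM and reads were recovered, and 100.0% of values up to 1000 reads were whole within 0.1 read. A floor of 3 reads was at most 0.183 CPM and covers counting error only, as reads after PCR are not independent molecules.

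Each comparison used limma 3.58.1 (R 4.3.3; a linear model per gene and a variance that may follow the mean) on log2(CPM + 0.1) of 8 libraries. Genes entered where their mean over these 8 was above 1 CPM, with Benjamini-Hochberg adjusted p under 0.05 over all genes tested. The difference between the stress effects was fitted on all 16 libraries. Fold changes are on the log2(CPM + 0.1) scale and understate the change of low genes. p-values and intervals rest on the spread between libraries, which came from separate mice within a group and, between IP and INPUT, from the same mice. Members and gene lists were chosen with earlier results of these data known. The genes named by rule were the members, pathway genes past the threshold in a stress comparison, the 3 highest and 3 lowest in naïve IP/INPUT, the 8 most like Irs2, and the 3 leading markers of a list that moved with a result. Further pathway genes were named after their values were seen, and most are marked so where they appear. As alternatives, the pseudocount was set to 1 or 0.01, the filter was dropped or raised to 5 CPM, and use was made of median-ratio scaling, quantile normalization, limma-voom on recovered reads with and without a filter at 1 FPKM, array weights, no variance trend, all 16 libraries in 1 model, Xist as a covariate and each library left out. Positions and exon lengths came from GENCODE M21 (94.6% of genes), and promoter sequences and starts from RefSeq on GRCm38.p6. Which IP and INPUT shared a mouse was not given in the sources used here, and no block was fitted. A few listed pathway genes are counted but not reported here singly.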

Additional observations from a re-analysis of the deposited data

Results flagged for a closer look

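In groups of 4, the library farthest from the rest was set against Dixon's 95% critical value, and 2 of 40 groups (10 members in 4 groups) passed it, where chance gives about 2. Pik3r1 in stress IP library 4 stood at 703 CPM while libraries 5, 6 and 15 stood at 560 to 570 CPM. Foxo6 in stress INPUT library 10 stood at 8.40 CPM while the other 3 libraries stood at 9.94 to 10.2 CPM.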

How the results depend on the processing

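Of 400 values of the members' IP/INPUT ratios under the alternatives, 364 kept direction and side of the threshold, 14 reversed, 15 lost and 7 gained a call. Of these 36, 18 came under the 2 scalings, 14 with a library left out and 4 under other settings. Under median-ratio scaling and quantile normalization, the naïve log2 ratio became 0.36 and 0.30 for Igf2, 0.60 and 0.52 for Irs1 and 0.29 and 0.16 for Foxo3, and the stressed ratio 0.32 and 0.27 for Irs1 and 0.37 and 0.24 for Foxo3. Genes called higher and lower in IP went from 3158 and 8540 to 5589 and 5642, then 5646 and 5483, in naïve mice, and from 3143 and 8332 to 5446 and 5524, then 5610 and 5286, in stressed mice. Igf1r in stressed mice gained a call under both scalings, at 0.75 and 0.60. Irs2 in stressed mice was −0.01 with array weights. Leaving out libraries gave −0.08 to 0.02 for Irs1 in naïve mice and −0.08 to 0.09 for Irs2 in stressed mice.

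Genes changed by stress in IP numbered 143 with array weights, 129 with all 16 libraries in 1 model, 19 with no variance trend and 17 to 122 with a library left out (122 without naïve IP library 11, 42 higher and 59 lower without stress IP library 15, and 17 to 24 without each of the other 6). Pathway genes changed in IP numbered 5 with array weights, 2 in 1 model, 0 with no filter, either scaling, no trend or the Xist covariate, and 0 to 7 with a library left out. In INPUT, 50 genes passed with array weights, 0 with no trend (Irs2 included), and 1 to 32 with a library left out (32 without naïve library 14, 18 without stress library 9, and 1 or 2 without each of the other 6); pathway genes numbered 1 with array weights (Slc2a1) and 0 to 1. For the difference between stress effects, 19 genes and 1 pathway gene passed with array weights, and 2 to 28 and 0 to 2 with a library left out. The cause was not tested. Irs2 kept log2 stress differences of 1.21 to 1.48 in IP and 0.46 to 0.58 in INPUT, and Foxo1 IP/INPUT ratios of 3.02 to 3.86. No paired analysis was possible because the labels do not say which IP and INPUT libraries came from 1 mouse and naïve and stressed mice share no replicate numbers. Depth limits Foxo6 in IP (21 to 58 reads) and GLUT4.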
